A study of Homo sapiens with 6 samples.

Results

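Mesenchymal transition factors and markers were followed in HCC-LM3, an established hepatocellular carcinoma line known for its metastatic behaviour. The set is 10 gene symbols: the transcription factor genes SNAI1, SNAI2, ZEB1, ZEB2 and TWIST1, and the marker genes VIM, CDH2, FN1, SPARC and LUM. Of these, 9 were analysed among the 23059 genes of the deposited tables, namely 4 factors and all 5 markers; TWIST1 was not analysed here. The members are a list of symbols that was drawn up with earlier results of these data known. Total RNA was sequenced from 3 samples given DMSO, the solvent control, and 3 given apigenin, a flavone found in many plants, and the titles call the samples biological replicates. The labels name no genetic change in any of the 6, and neither the dose nor the duration of treatment is stated. The design asks how apigenin alters transcription in these cells.

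In an epithelial to mesenchymal transition, cells loosen their junctions, lose apical and basal polarity and gain a motile, matrix-producing state. Zinc finger proteins of the SNAI and ZEB families and the basic helix-loop-helix protein TWIST1 drive it by binding E-box sequences and repressing epithelial genes, above all CDH1, which encodes E-cadherin. Vimentin (VIM), N-cadherin (CDH2) and fibronectin (FN1) are the usual markers of the mesenchymal state, whereas osteonectin (SPARC) and the proteoglycan lumican (LUM) belong to the matrix of connective tissue. In liver cancer this programme is studied for its part in invasion and spread.

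Apigenin moved 3 of the 9 genes past the threshold, and not in one direction. SNAI2 and LUM rose and FN1 fell, while SNAI1, ZEB1, ZEB2, VIM, CDH2 and SPARC did not pass. The threshold was an adjusted p under 0.05 from edgeR's quasi-likelihood test over all 15173 tested genes, of which 6.99% were called, 2.76% higher and 4.22% lower. The members' 2 rises and 1 fall make up 33.3% of 9 genes, with a median log2 fold change (apigenin over DMSO) of -0.10, against a median of 0 over all tested genes. Libraries of the groups did not overlap for 4 of the 9, SNAI2, LUM, FN1 and CDH2, against 29.4% of all tested genes.

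The libraries held 33882145 to 37983636 counts, and 0 reads in a library allow a level of up to 0.079 to 0.0885 CPM (3 counts, counting error only). CPM are counts scaled to the library's TMM-adjusted total. The number of calls over all genes moved with single libraries, from 103 higher and 157 lower without DMSO 1 to 1344 higher and 1546 lower without apigenin 2. Fold changes also leaned on gene length: per doubling of length, log2 CPM relative to the DMSO mean changed by -0.071, -0.021 and -0.147 in apigenin 1, 2 and 3, and by 0.001, -0.005 and 0.003 in the DMSO libraries. All 8 hepatocyte markers (ALB, AFP, APOA1, APOB, SERPINA1, TTR, TF and HNF4A) were detected. Of these, 4 fell (50%, against 4.22% of all tested genes). The 8 summed to 668 to 691 CPM with DMSO and 478 to 502 with apigenin. TF, the largest part of that sum (341 CPM with DMSO), had a log2 fold change of -0.24 (adjusted p = 0.03 with edgeR). After removal of the length trend TF was no longer called (log2 fold change 0, adjusted p = 0.995). TF has a length of 21225 nucleotides here, against a median of 3289 over all genes, and the part of length in its change was not tested. In the same fit ALB, APOB, SERPINA1, APOA1 and TTR were lower. The part of the shift in hepatocyte markers in the results was not tested. In RNA from whole cultures, fewer cells of a type and less RNA per cell cannot be told apart. The p-values measure the spread between these samples.

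**Figure D1:**
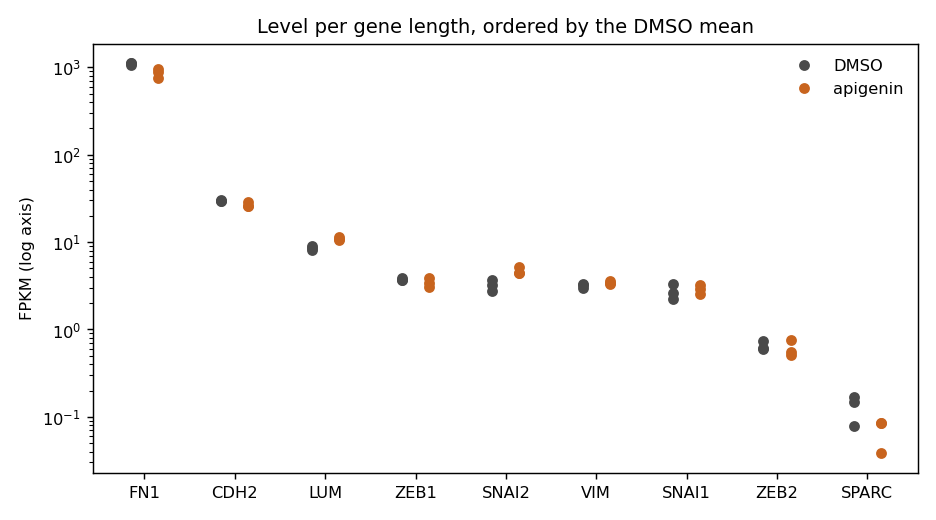
Level per gene length (FPKM, log axis) of the 9 genes in each of the 3 DMSO and 3 apigenin libraries, ordered by the DMSO mean. FN1 lies near 1100 FPKM in DMSO, CDH2 near 29.9, and SPARC lowest, near 0.131.

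Per length, the members spanned a wide range of levels. FPKM divide the count by gene length and library total. FN1 had 1100 ± 19.4 FPKM (SD, n = 3) with DMSO, the 32nd highest gene of the tables, and took 0.925 to 0.956% of all counts in the DMSO libraries. CDH2 followed with 29.9 ± 0.467 FPKM, 36.9-fold below FN1, and LUM with 8.63 ± 0.455 FPKM. The factors were lower, ZEB1 at 3.76 ± 0.0745, SNAI2 at 3.23 ± 0.437, SNAI1 at 2.71 ± 0.54 and ZEB2 at 0.655 ± 0.0777 FPKM. VIM, whose product is the intermediate filament of mesenchymal cells, had 3.18 ± 0.152 FPKM, against 1280 for KRT8 and 571 for KRT18, which encode the keratin filaments of simple epithelia. SPARC was lowest with 0.131 ± 0.0469 FPKM. Libraries of SNAI2, VIM and SNAI1 overlapped, so these neighbours were not ordered, and each of the other neighbouring pairs was separate in all 3 DMSO libraries.

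SNAI2 (chromosome 8, 48917598 to 48921429), the gene of the repressor SLUG, was the only one of the 4 factors to pass. Its levels were 7.05, 6.07 and 8.02 CPM in DMSO 1, 2 and 3, and 9.64, 11.2 and 9.82 CPM in apigenin 1, 2 and 3. Every apigenin library stood above every DMSO library, and the highest was apigenin 2. The mean went from 7.05 ± 0.973 to 10.2 ± 0.881 CPM, a log2 fold change of 0.54 ± 0.14 (SE, n = 3 per group, adjusted p = 0.0317). On the FPKM scale SNAI2 stood at 4.69 ± 0.442 with apigenin, where all 3 of its libraries were above those of ZEB1 (3.45 ± 0.394). With DMSO all 3 were below, narrowly so in DMSO 3, with 3.67 against 3.7 for the lowest ZEB1 library. SNAI2 has 2180 nucleotides and ZEB1 8199, and the part of gene length in this order was not tested. The call of SNAI2 was lost without DMSO 1 (adjusted p = 0.133), DMSO 2 (0.139) or apigenin 1 (0.0843). With the length trend removed SNAI2 rose by 0.46 (adjusted p = 0.0427).

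The genes with the profile closest to that of SNAI2, by the root mean square difference of centred log2 CPM over the 6 libraries, were TGDS (0.0455), NFE2L2 (0.0926) and LINC01355 (0.0933), out of 10711 genes averaging at least 5 CPM. TGDS had 5.17 ± 0.504 CPM with DMSO and 7.46 ± 0.73 with apigenin. NFE2L2, which encodes the antioxidant regulator NRF2, went from 97.1 ± 5.35 to 136 ± 3.66 CPM. The 6 libraries are shared by all these profiles, so the likeness is a description.

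SNAI1 (chromosome 20, 49982980 to 49988886), the gene of the repressor SNAIL, showed no such rise. It had 3.82, 4.41 and 5.64 CPM in DMSO 1, 2 and 3, and 4.89, 4.33 and 5.54 CPM in apigenin 1, 2 and 3. Both groups covered nearly the same range, and DMSO 3 was the highest library. The log2 fold change was 0.09 ± 0.18 (95% interval -0.31 to 0.49, adjusted p = 0.824). The estimate for SNAI2, 0.54, lies just outside this interval, but the 95% interval of SNAI2, 0.25 to 0.83, overlaps it. The difference between SNAI1 and SNAI2 in response was not tested.

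ZEB1 (chromosome 10, 31318417 to 31529804) and ZEB2 (chromosome 2, 144384081 to 144520119) encode large zinc finger and homeodomain repressors and are among the longest members, at 8199 and 9265 nucleotides. ZEB1 had 30.6, 30.3 and 31.6 CPM with DMSO and 27.6, 31.5 and 25.7 CPM with apigenin. The groups overlapped, with apigenin 2 at the DMSO level and apigenin 1 and 3 below it. The log2 fold change was -0.12 ± 0.087 (95% interval -0.31 to 0.06, adjusted p = 0.422), and -0.02 with the length trend removed. ZEB2 ranged from 5.6 to 6.92 CPM with DMSO and from 4.75 to 6.92 CPM with apigenin, with a log2 fold change of -0.10 ± 0.17 (95% interval -0.47 to 0.26, adjusted p = 0.767). The ZEB1 exons share 366 bases with those of the antisense gene ZEB1-AS1 in GENCODE 29. ZEB1-AS1 had 5.85 ± 0.48 CPM with DMSO and 7.55 ± 0.999 with apigenin (log2 fold change 0.37 ± 0.15, adjusted p = 0.139). No source says if counting was by strand, so it is not known how reads in the shared bases entered the count of either gene.

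**Figure D2:**
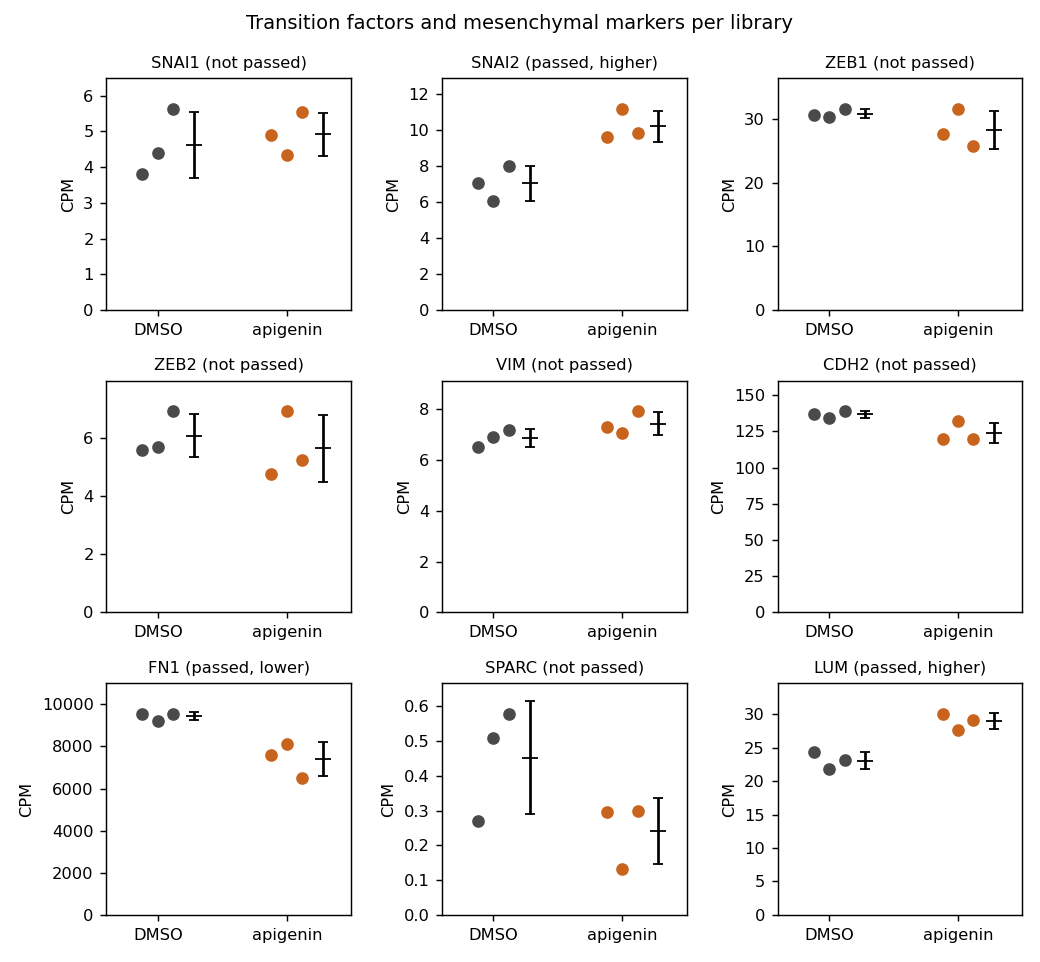
CPM of each gene in the 3 DMSO and 3 apigenin libraries (points, replicates 1 to 3 from left to right), with the mean and SD beside them (bars); each axis starts at 0. SNAI2 and LUM sit higher with apigenin, and FN1 lower, in all 3 libraries, and CDH2 is also separate but did not pass.

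FN1 (chromosome 2, 215360865 to 215436068), the gene of the matrix glycoprotein fibronectin that integrins bind, was the only member that fell. It had 9560, 9220 and 9540 CPM in DMSO 1, 2 and 3, and 7600, 8120 and 6520 CPM in apigenin 1, 2 and 3. The DMSO libraries lay close together, and all apigenin libraries were below them and further apart. The mean went from 9440 ± 188 to 7410 ± 819 CPM, a fold change of 0.785 (log2 fold change -0.35 ± 0.063, adjusted p = 0.00507). Its share of all counts was 0.925 to 0.956% with DMSO and 0.644 to 0.819% with apigenin. The call was lost by little without DMSO 1 (adjusted p = 0.0509).

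FN1 is 8571 nucleotides long, and the part of gene length in its change was not tested. Relative to the DMSO mean it stood at -0.31, -0.22 and -0.53 on the log2 scale in apigenin 1, 2 and 3, against slopes of -0.071, -0.021 and -0.147. With the length trend removed its log2 fold change was lower than 0 in the same test (-0.24 ± 0.032, adjusted p = 4.95e-05). ZEB1 (8199 nucleotides) stood at -0.16, 0.03 and -0.26 in these libraries.

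**Figure D3:**
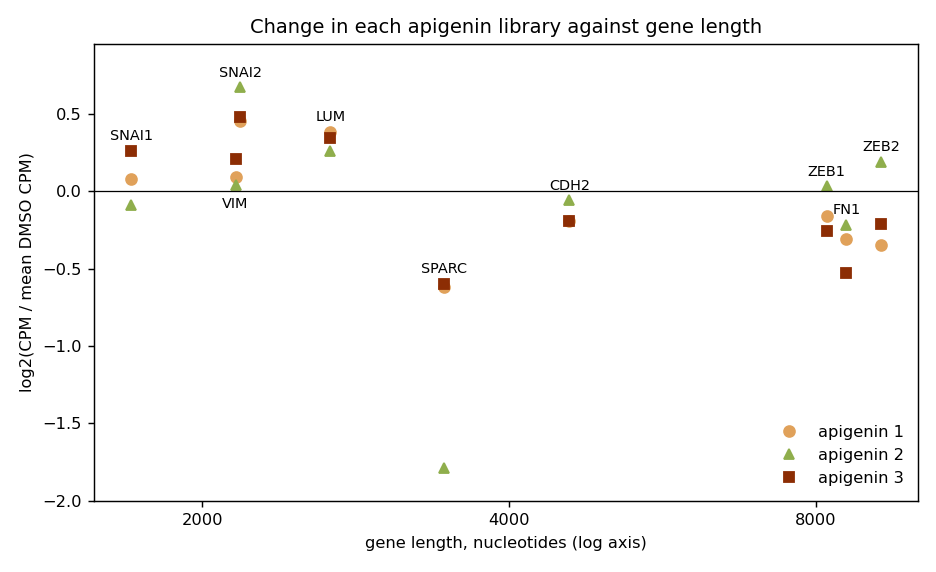
Log2 ratio of CPM to the DMSO mean for each gene in apigenin 1, 2 and 3 (symbols), against gene length in nucleotides (log axis). FN1 (8571 nucleotides) stood at -0.31, -0.22 and -0.53 in apigenin 1, 2 and 3. In the same order ZEB1 stood at -0.16, 0.03 and -0.26, and ZEB2 at -0.35, 0.19 and -0.21.

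The promoter window of FN1 is shown because FN1 is the marker that fell. Beside it is 1 of the 2 windows of CDH2, which did not pass. In RefSeq (GRCh38.p14) 6 of the 9 genes had windows, 13 windows in all, each 250 bases before to 50 after a start site. Capitals mark matches to any of 3 motifs searched on both strands: the E-box CACCTG bound by SNAI and ZEB proteins, the core sequence GCGTG bound by the aryl hydrocarbon receptor and the cyclic AMP response element TGACGTCA. The windows lie on the minus strand at chr2:215436019-215436318 and chr18:28177081-28177380.
FN1: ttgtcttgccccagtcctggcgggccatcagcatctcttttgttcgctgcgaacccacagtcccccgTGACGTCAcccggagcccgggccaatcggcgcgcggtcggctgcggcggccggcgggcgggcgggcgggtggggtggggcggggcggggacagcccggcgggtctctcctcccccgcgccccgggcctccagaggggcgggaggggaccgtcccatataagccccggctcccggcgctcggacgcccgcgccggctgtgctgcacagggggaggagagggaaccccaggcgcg
CDH2: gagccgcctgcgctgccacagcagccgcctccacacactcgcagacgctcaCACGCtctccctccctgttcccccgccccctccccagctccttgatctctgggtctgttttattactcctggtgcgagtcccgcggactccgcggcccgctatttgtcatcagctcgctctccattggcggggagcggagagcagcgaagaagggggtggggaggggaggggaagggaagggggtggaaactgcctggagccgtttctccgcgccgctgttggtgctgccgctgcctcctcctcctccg

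The FN1 window held TGACGTCA, starting 183 bases before the start site, and neither of the other motifs. TGACGTCA occurred in 1.85% of all 35116 windows, and in no window of the other 5 members searched. SNAI1, SNAI2 and LUM had no window in the table and were not searched. The CDH2 window printed held GCGTG once, on the opposite strand and so printed as its reverse complement, starting 199 bases before the start site. GCGTG occurred in 36.5% of all windows. Among the members it was also in 2 of the 7 ZEB1 windows and in the ZEB2 window. It was not in the other CDH2 window or in those of VIM, FN1 and SPARC. CACCTG, found in 20.6% of all windows, occurred in 2 of the 7 ZEB1 windows and in no window of ZEB2, VIM, CDH2, FN1 or SPARC. These matches describe the letters of the windows and show no binding.

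CDH2 (chromosome 18, 27932879 to 28177130), the gene of N-cadherin, was slightly lower without passing. It had 137, 134 and 139 CPM with DMSO and 120, 132 and 120 CPM with apigenin. All apigenin libraries were below all DMSO libraries, apigenin 2 only narrowly. The log2 fold change was -0.14 ± 0.059 (95% interval -0.27 to -0.02, unadjusted p = 0.0304, adjusted p = 0.155 with edgeR), and the gene was called without apigenin 2 (-0.19, adjusted p = 0.0239).

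CDH1, the epithelial counterpart of CDH2 and the best known target of the SNAI and ZEB repressors, fell. It had 29, 27.6 and 30.9 CPM with DMSO and 18.5, 20.3 and 18.4 CPM with apigenin, so that the groups were well apart (log2 fold change -0.61 ± 0.087, adjusted p = 0.0011). On the FPKM scale the ratio of CDH2 to CDH1 was 5.03, 5.18 and 4.8 with DMSO, and 6.88, 6.9 and 6.97 with apigenin. The ratio was higher in every apigenin library, by 0.47 on the log2 scale, with a mean of 5 ± 0.189 against 6.92 ± 0.0471. An exact two-sided permutation test of 3 against 3 libraries gave p = 0.1, the smallest it can give.

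VIM (chromosome 10, 17228241 to 17237593) was nearly level. It had 6.51, 6.9 and 7.18 CPM with DMSO and 7.28, 7.05 and 7.92 CPM with apigenin. The groups overlapped in DMSO 3 and apigenin 2, and the log2 fold change was 0.11 ± 0.13 (95% interval -0.17 to 0.39, adjusted p = 0.653). VIM shares 641 exon bases with the antisense gene VIM-AS1, which had 46 to 74 reads a library against 242 to 270 for VIM.

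LUM (chromosome 12, 91102629 to 91111494), a small leucine-rich proteoglycan that orders collagen fibrils, rose. It had 24.3, 21.8 and 23.1 CPM with DMSO and 30.1, 27.7 and 29.2 CPM with apigenin. The groups did not overlap, and both were tight. The mean went from 23.1 ± 1.25 to 29 ± 1.22 CPM (log2 fold change 0.33 ± 0.083, adjusted p = 0.0313), and the change was 0.27 with the length trend removed (adjusted p = 0.0328). In that fit, which called 9.97% of all genes (4.51% higher and 5.46% lower), the same 3 members passed, SNAI2 and LUM as higher and FN1 as lower. The call was lost without DMSO 1 (adjusted p = 0.0882), DMSO 2 (0.146), DMSO 3 (0.133) or apigenin 1 (0.13).

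LUM is also a fibroblast marker, and the other 7 genes of that list, COL1A1, COL1A2, COL3A1, DCN, PDGFRA, PDGFRB and THY1, summed to 1.33 to 2.09 CPM with DMSO and 1.64 to 2.17 CPM with apigenin. THY1 had 0 reads in 5 of the libraries and 1 in apigenin 2. COL1A1 and DCN, the 2 tested among these 7, had log2 fold changes of 0.10 and 0.32 (adjusted p = 0.939 and 0.702 with edgeR).

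SPARC (chromosome 5, 151661096 to 151686915), which encodes a collagen-binding protein, had few reads. It had 10, 19 and 20 reads with DMSO and 10, 5 and 10 with apigenin. The groups overlapped at 10 reads, and apigenin 2 was lowest. The pooled reads amount to 0.449 CPM (exact Poisson 95% interval 0.332 to 0.594) with DMSO and 0.236 CPM (0.153 to 0.349) with apigenin, intervals that cover counting error only. The log2 fold change was -0.91 ± 0.61 (95% interval -2.22 to 0.41, adjusted p = 0.392), and the spread between libraries was wide.

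**Figure D4:**
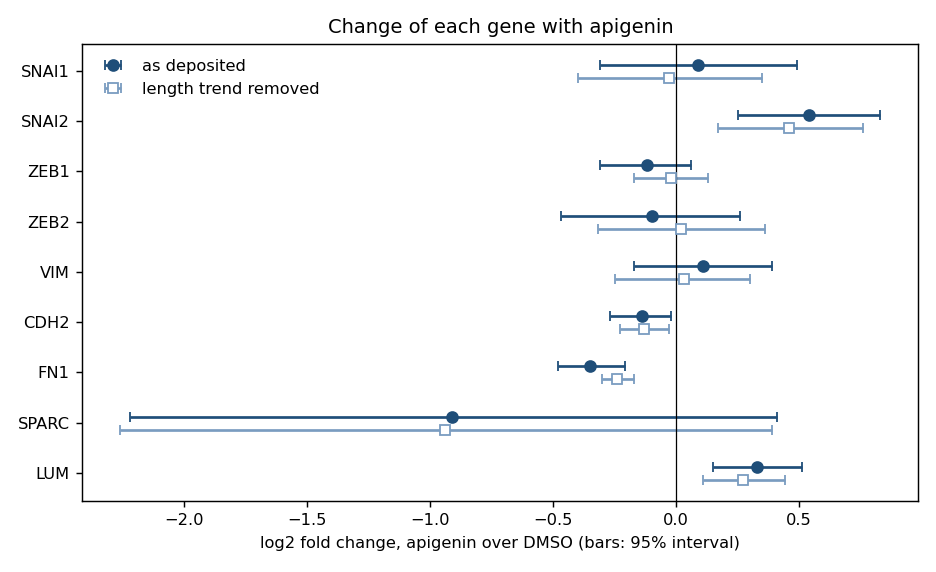
Log2 fold change, apigenin over DMSO, of each gene with its 95% interval, from the deposited counts (filled) and with each library's length trend removed (open). SNAI2 and LUM lie above 0 and FN1 below it in both, and the interval of SPARC reaches from -2.22 to 0.41.

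The wider transition programme was read from 6 further lists of 111 genes, of which 87 were tested: 4 rose, 14 fell and 69 did not pass. Thus 4.6% rose and 16.1% fell, against 2.76% and 4.22% of all tested genes, and most of the falls, 8 of 14, were epithelial markers.

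Among the other transition factors 1 of 6 tested genes fell (16.7%, against 4.22% of all tested genes) and 5 did not pass. The one was HMGA2, which encodes a chromatin protein of embryonic and tumour cells that acts upstream of SNAI genes, at 32.3 CPM with DMSO and 23.5 with apigenin (log2 fold change -0.46 ± 0.09, adjusted p = 0.00833). Its call was lost without DMSO 1 (adjusted p = 0.0744), DMSO 3 (0.0504) or apigenin 1 (0.0598). Of the 12 co-repressors and stability genes of SNAI and ZEB proteins, among them CTBP1, HDAC1, KDM1A and GSK3B, 0 passed with edgeR, DESeq2 or limma on log2(FPKM + 1), and 0 had an unadjusted p under 0.05 with edgeR. Over all tested genes 6.99% passed with edgeR and 1567 of 12327 with DESeq2. With limma 352 were higher and 303 lower of 12592, and 3697 of 15173 had an unadjusted p under 0.05 with edgeR. Of 14 TGF-beta, BMP and SMAD genes, TGFB1, which encodes a classical inducer of the transition, fell from 93.5 to 72.5 CPM (-0.37 ± 0.071, adjusted p = 0.0076). BMP2 rose from 70.3 to 85.2 CPM (0.28 ± 0.064, adjusted p = 0.0218), and the other 12 did not pass. Thus 7.14% rose and 7.14% fell, against 2.76% and 4.22% of all tested genes. SMAD2 and SMAD4 encode signal transducers of TGF-beta receptors. After removal of the length trend both were also called higher (0.37 and 0.24, adjusted p = 0.00142 and 0.0132). That made 3 of 14, against 4.51% of all tested genes in that fit. As deposited they had 0.08 and 0.12 (adjusted p = 0.504 and 0.295 with edgeR), and their libraries overlapped. SMAD2 has 42081 nucleotides and SMAD4 8772, against a median of 3289 over all genes. The part of length in these calls was not tested. TGFB1 lost its call without DMSO 2 (adjusted p = 0.0683), DMSO 3 or apigenin 1 (0.0605 each), and BMP2 without DMSO 1, 2 or 3 or apigenin 1 (0.0854 to 0.145).

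Of 23 other mesenchymal markers tested, 2 were higher (8.7%), 3 lower (13%) and 18 not passed, against 2.76% higher and 4.22% lower of all tested genes. With the length trend removed 2 were higher and 7 lower, with CALD1, MSN, ITGA5 and ITGB1 added to the lower ones, against 4.51% and 5.46% of all tested genes. The signalling ligand gene WNT5A rose from 84.7 to 118 CPM (log2 fold change 0.48 ± 0.067, adjusted p = 0.00103). The hyaluronan receptor gene CD44 fell from 309 to 242 CPM (-0.35 ± 0.052), and the integrin gene ITGAV from 386 to 313 CPM (-0.31 ± 0.077). WNT5A and CD44 kept their calls with any 1 library left out, whereas ITGAV lost it without DMSO 1, 2 or 3 or apigenin 1 (adjusted p = 0.0942 to 0.162).

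**Figure D5:**
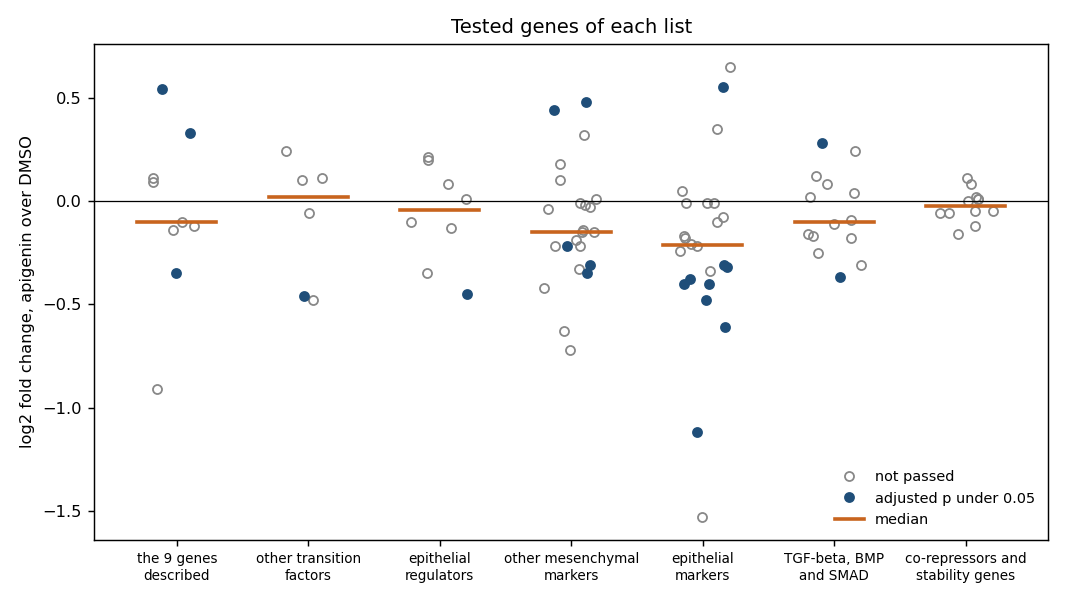
Log2 fold change of every tested gene in the 9 described and in the 6 further lists; filled points passed, open points did not, and the line is the list's median. The epithelial markers have the lowest median, -0.22, and 8 of 24 passed as lower.

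Of 24 tested epithelial markers, 8 fell (33.3%, against 4.22% of all tested genes), 1 rose and 15 did not pass. Libraries of the groups did not overlap for 16, against 29.4% of all tested genes. With the length trend removed 13 were lower and 1 higher, against 5.46% and 4.51% of all tested genes. Beside CDH1 the tight junction gene CLDN2 fell from 13.8 to 6.33 CPM (log2 fold change -1.12 ± 0.12, adjusted p = 9.67e-05) and the desmosome gene DSP from 285 to 204 CPM (-0.48 ± 0.086). The mucin gene MUC1 rose from 5.37 to 7.85 CPM (0.55 ± 0.13, adjusted p = 0.0255). CDH1, CLDN2 and DSP kept their calls with any 1 library left out, and MUC1 lost it without DMSO 1, 2 or 3 or apigenin 1 (adjusted p = 0.0777 to 0.12). Among epithelial regulators 1 of 8 passed: FOXA1, a pioneer factor of endodermal tissues, fell from 78.9 to 57.9 CPM (-0.45 ± 0.063, adjusted p = 0.00108). That is 12.5%, against 6.99% of all tested genes. With DESeq2 3 of the 8 were called, against 1567 of all 12327 genes tested in that fit. With the length trend removed the number was also 3, against 9.97% of all tested genes. These were FOXA1 and KLF4 as lower and KLF5 as higher (adjusted p = 0.0388 for KLF4 and 0.0326 for KLF5).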

How the data were processed

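RNA was extracted with TRIzol, per the labels' protocols. The tools named are HISAT2, HTSeq and fastp, with the build GRCh38 (hg38), per the submitters' processing notes; their versions and the strand setting are not stated. The authors deposited read counts per gene, not normalized, and FPKM for each of 6 libraries. Gene lengths were taken from these tables, since the deposited FPKM equal count over length and library total for 100% of genes (tolerance 0.0001).

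Apigenin was compared with DMSO by edgeR 4.0.16 (R 4.3.3; quasi-likelihood, TMM, default filter, Benjamini-Hochberg at 0.05). SE is the log2 fold change over the root of F, and 95% intervals use the moderated degrees of freedom. Alternatives were DESeq2 1.42.0, other scaling factors and filters, a replicate block, limma 3.58.1 on log2(FPKM + 1) and log2(FPKM + 0.1), leaving out each library, and offsets removing each library's lowess trend (span 0.3) on gene length. Steps were tested on simulated data. Members and lists were chosen with earlier results of these data known. Named genes are the members, CDH1, up to 4 called genes (mean of 1 CPM or more) of each further list by size of change, and the 3 nearest profiles to SNAI2, the called member with the largest fold change. One gene that this rule names is not reported here. Of the marker lists, endothelial genes (PECAM1, CDH5, VWF, KDR) summed to 105 to 111 CPM with DMSO and 87.1 to 96.3 with apigenin. Their DMSO means were 51, 0.118, 0.531 and 55.7 CPM in this order. Leukocyte genes (PTPRC, CD3E, CD68, LYZ) summed to 87.2 to 94.4 and 85.5 to 94.5, with DMSO means of 0.127, 0, 89.1 and 0.779 CPM. Of 3 endothelial and 2 leukocyte genes tested, 0 passed with edgeR, against 6.99% of all tested genes. With DESeq2 1 and 0 passed, against 1567 of 12327. An unadjusted p under 0.05 with edgeR was found for 2 and 1, against 3697 of 15173. With the length trend removed KDR was called lower (-0.22, adjusted p = 0.0368), against 5.46% of all tested genes. The part of these lists in the results was not tested.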

Additional observations from a re-analysis of the deposited data

How the results depend on the processing

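SNAI2 and LUM stayed higher and FN1 lower in direction under each of the 21 alternatives, with log2 fold changes of 0.35 to 0.64, 0.24 to 0.37 and -0.42 to -0.20. They were called in 15, 15 and 18 of these. The cause of the following changes was not tested, except that fewer samples enter the fits without a library. Members higher and lower numbered 0 to 2 and 0 to 2 with 1 library left out, 0 and 0 with limma on log2(FPKM + 1) without a filter, and 2 and 0 with limma on log2(FPKM + 0.1), where FN1 had an adjusted p of 0.0501. Over all genes 658 were higher with DESeq2, 865 higher and 1096 lower without a filter on low counts, 303 and 289 lower with limma on log2(FPKM + 1) and log2(FPKM + 0.1), and 78 higher and 60 lower with limma without a filter. Leaving out 1 library gave 103 to 1344 higher and 157 to 1546 lower. With the length trend removed 685 were higher, and 801 with the replicate block as well. In the further lists, 7 genes rose without a filter, 1 rose and 5 fell with limma without a filter, 7 rose and 24 fell with the length trend removed, and 7 and 23 with the block as well. Leaving out 1 library gave 2 to 8 higher and 6 to 25 lower.

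Settings chosen after seeing the data removed the length trend and 1 apigenin library, which gave 413, 966 and 637 genes higher without apigenin 1, 2 and 3, and 499 to 994 lower, with 0 to 2 members higher and 1 to 2 lower and 5 to 8 and 16 to 24 genes of the further lists. Direction changed for 3 members that did not pass. With the length trend removed SNAI1 stood at -0.03 (-0.02 with the block) and ZEB2 at 0.02 (0.01 with the block). Without 1 library SNAI1 ranged from -0.03 to 0.26 and ZEB2 from -0.28 to 0, and with the length trend also removed SNAI1 ranged from -0.07 to 0.02, ZEB2 from -0.10 to 0.13 and ZEB1 from -0.06 to 0.

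Same-numbered libraries deviated from their group means with correlations of -0.0173, -0.0194 and -0.0482, and differently numbered ones with -0.0113 to 0.0305. These values show no pairing by replicate number, but cannot show how the samples were handled. With the number as a block, 455 genes were higher and 776 lower, 2 members higher and 1 lower, and 4 and 15 genes of the further lists. SPARC had the fewest reads of the members, 5 to 20 a library.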

Other observations

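Of the 13 epithelial regulators listed 8 were tested, and the others were barely read in any library of either group. GRHL2 had 0 to 7 reads a library, OVOL1 and OVOL2 0 to 6, the splicing factor gene ESRP1 0 to 6, and MIR200CHG, the host gene of microRNAs that target ZEB1 and ZEB2, 0 to 4. Of the 25 epithelial markers 24 were tested. The remaining marker, EPCAM, found on the surface of epithelial and progenitor cells, had 2 to 10 reads. In the same libraries ESRP2, the paralogue of ESRP1, had 474 to 779 reads, and the epithelial factor gene ELF3 11787 to 13398. GRHL1 had 3.12 CPM with DMSO, and FOXA2, KLF5, HNF4A, FOXA1 and KLF4 had 41.4, 69.5, 76, 78.9 and 89.6. These genes were named after their values were seen.

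Mesenchymal markers were as uneven. The calcium-binding protein gene S100A4 had 2610 FPKM with DMSO, while the smooth muscle actin gene ACTA2 had 4 reads in DMSO 1 and 0 in each of the other 5 libraries, and POSTN had 1 read in DMSO 3 alone. S100A4 had a log2 fold change of 0.18 (adjusted p = 0.227 with edgeR), and -0.03 with the length trend removed.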
